A study of Mus musculus with 2 samples.

Results

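A set of 8 inhibitory checkpoint genes, receptors and ligands that restrain T cells and macrophages, was followed through the kidney immune cells of mice with nephrotoxic serum nephritis (NTN), a model of acute glomerular injury. The members were listed by name and not by their values: the receptors Pdcd1, Lag3, Havcr2, Tigit, Btla, and Cd200r1 and the ligands Cd274 and Pdcd1lg2, which are 8 of the 20299 genes in the data. Their unique molecular identifiers (UMIs, each standing for 1 captured transcript) were summed by cluster and by mouse genotype across the T, NK, and macrophage clusters, which hold 3734 of 5470 WT cells and 1302 of 1844 Vsir-/- cells. Both groups were C57BL/6 mice aged 8 weeks that received 200 µg of sheep IgG in Freund's complete adjuvant into the peritoneum and, 4 days later, sheep nephrotoxic serum into a vein, at 2 µL per g of body weight by the sample labels, whereas the study's methods state a larger dose. The Vsir-/- mice lack VISTA, itself an inhibitory checkpoint, in every cell type. Kidneys were digested with liberase at 0.2 mg/mL for 30 minutes at 37 °C before droplet capture of single cells. The labels describe the WT library as sorted CD45+ cells and the Vsir-/- library as kidney cells of all kinds, whereas the study's methods describe a CD45 sort. Each genotype is 1 library, and the number of mice behind a library is not given in the sources used here, so genotype, sort, and library cannot be told apart and no test between genotypes was possible.

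Inhibitory checkpoints are pairs of surface proteins that dampen an immune response. Receptors on an activated T cell, such as PD-1, LAG-3, TIM-3, TIGIT, and BTLA, recruit phosphatases or compete with costimulatory receptors once a ligand on another cell engages them, and several of them appear together on T cells that are stimulated for a long time. Macrophages and dendritic cells carry the PD-1 ligands PD-L1 and PD-L2, whose genes respond to interferon and to type 2 cytokines, respectively, and they also carry TIM-3 and the CD200 receptor, which restrain the myeloid cell itself.

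The WT library held 32799550 UMIs (median, 4726.5 per cell) and the Vsir-/- library 18601189 (median, 6673 per cell), and 5 cell barcodes occurred in both. Vsir gave 4278 UMIs in WT cells and 8 in Vsir-/- cells, as the labels state. The clusters carry the authors' names: EM-like and non-EM-like CD4+ and CD8+ T cells (EM, effector memory), γδ T cells, NKT cells, NK cells, resident R1 macrophages, and infiltrating R2 macrophages, which were split into M2-like R2 and other R2. In non-EM-like CD4+ T cells, 233 of 349 Vsir-/- cells had no transcript of the 6 T cell markers, against 0 of 895 WT cells, whereas 96.0% or more of the Vsir-/- cells had one in the other 3 CD4+ and CD8+ T cell clusters. Outside the compared clusters, 119 of 189 Vsir-/- proliferating cells had no transcript of Ptprc, which encodes CD45, against 2 of 118 WT cells. The NKT cluster had no Vsir-/- cell, so 9 clusters were compared. Transcripts of the 12 kidney tubule markers made up 0 to 43.6 CPM (UMIs per 1000000 UMIs of the same cells) in the WT clusters and 1418 to 14548 CPM in the Vsir-/- clusters. WT macrophages held more lymphocyte transcripts than Vsir-/- macrophages: the summed B cell markers reached 1131 against 56.2 CPM in R1, 319 against 11.3 in M2-like R2, and 1188 against 7.76 in other R2. EM-like CD8+ T cells were only 28 cells in the Vsir-/- library.

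The libraries also differed in how genes were listed. The WT library had no UMI of 5348 genes that the Vsir-/- library had, 7 of the 12 tubule markers among them, and the Vsir-/- library had none of 1574 genes that the WT library had. Some of these are 1 gene under an older and a newer symbol: Aes gave 13241 WT and 0 Vsir-/- UMIs, and Tle5, its newer name, gave 0 and 7784. All 8 members had UMIs in both libraries. The study's methods name male mice. The Y-linked genes Ddx3y and Eif2s3y gave 1779 and 2150 UMIs in the WT library and 0 in the Vsir-/- library, whereas Xist, which is expressed from the inactive X of females, gave 0 and 16405. The Vsir-/- library thus goes against the stated sex, and sex and genotype cannot be told apart in any value below.

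The 2 PD-1 ligands are neighbors on chromosome 19 and on the same strand, and their upstream sequences are shown. Of the WT UMIs, EM-like CD4+ T cells held 9.91% for Cd274 and 26.5% for Pdcd1lg2. The pair still had the highest Pearson's r between members over the clusters (0.51). A link between sequence and level was not tested. The table of promoters used here, taken from RefSeq, holds the upstream region of 6 of the 8 members (not Lag3 and Cd200r1). The 250 bases before each start, in build GRCm38.p6 on the plus strand, were as follows, 5′ to 3′, with capitals marking a match to a searched motif.

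Cd274 (chr19:29367188-29367437): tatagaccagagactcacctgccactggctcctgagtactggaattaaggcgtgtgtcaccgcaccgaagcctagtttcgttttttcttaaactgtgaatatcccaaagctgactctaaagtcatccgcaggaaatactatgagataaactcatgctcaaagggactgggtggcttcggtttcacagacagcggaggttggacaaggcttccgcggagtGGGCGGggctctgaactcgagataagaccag

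Pdcd1lg2 (chr19:29410669-29410918): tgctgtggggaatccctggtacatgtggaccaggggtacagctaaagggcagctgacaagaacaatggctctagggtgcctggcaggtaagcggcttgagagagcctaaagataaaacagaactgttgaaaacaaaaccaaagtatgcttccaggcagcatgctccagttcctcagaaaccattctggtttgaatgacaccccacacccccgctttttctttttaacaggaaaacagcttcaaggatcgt

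The Cd274 sequence held 1 GC box (GGGCGG) at 31 to 26 bases before the start, a motif found in 32.7% of the 32851 promoters of the table. The Pdcd1lg2 sequence held none of the searched motifs. The others, read on both strands, were the interferon-stimulated response element core (GAAA and GAAA with NN between, 2.98% of promoters), the gamma-activated sequence TTCNNNGAA (7.02%), the AP-1 element TGANTCA (6.75%), the NF-kappaB core (GGGA, N, and TTTCC, 0.356%), and the TATA box TATAAA (12.4%). These shares refer to windows of the same length. A match describes letters in this window only.

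Across the 9 clusters and 8 members there were 72 pairs of gene and cluster, and 29 of them reached 20 UMIs over both libraries. Of the 29 pairs, 4 were at least 2-fold higher and 8 at least 2-fold lower in the Vsir-/- library, and the median log2 ratio was 0.06. Over all genes and the same clusters, 15.9% of pairs with 20 UMIs were at least 2-fold higher and 8.46% at least 2-fold lower. Among the 71752 pairs of genes that have UMIs in both libraries, the shares were 13.1% and 7.53%. The lower pairs were 5 for Btla and 1 each for Lag3, Havcr2, and Cd200r1, and the higher pairs were 2 for Cd200r1 and 1 each for Pdcd1 and Cd274. No pair of Tigit or of EM-like CD8+ T cells reached 20 UMIs. Here and below, levels are in CPM, ratios are Vsir-/- over WT with 0.5 UMI added to each sum, and all intervals are exact 95% intervals that cover counting error only, not the spread between mice.

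**Figure D1:**
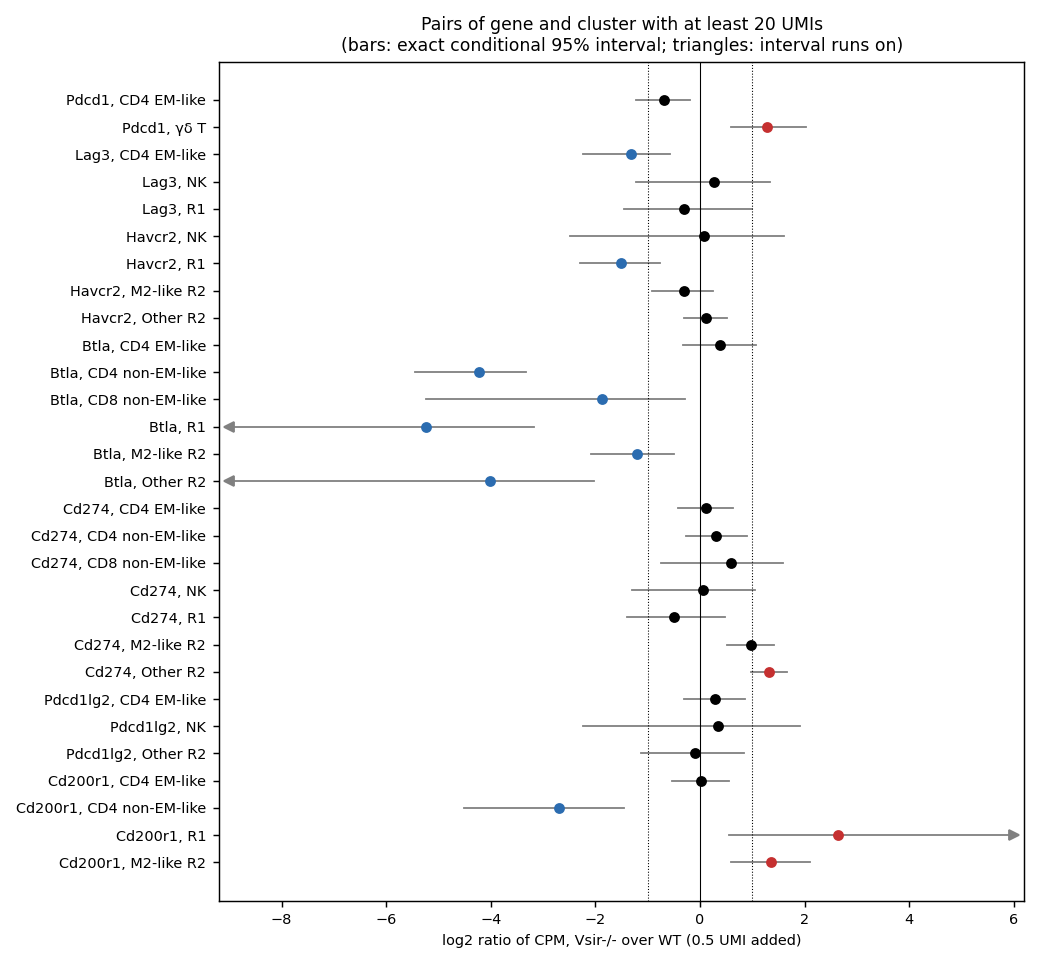
Log2 ratio (x axis, Vsir-/- over WT) for the 29 pairs of gene and cluster (rows) with at least 20 UMIs, as points with exact conditional 95% intervals; dotted lines mark a 2-fold difference, and red and blue points lie past it. Of the 8 blue points 5 are Btla, 3 of which are the leftmost at −5.23, −4.22, and −4.03, and the interval of Cd274 in other R2 macrophages, 0.97 to 1.67, is the narrowest among the 4 red points.

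The members were held by different clusters, and the shares held differed between the libraries. T cell clusters without γδ T cells held 59.7% of the 236 Pdcd1 UMIs in WT cells and 39.7% of 136 in Vsir-/- cells, and γδ T cells held 12.3% and 33.1%. Macrophages held 78.3% of Havcr2 UMIs in WT cells and 65.9% in Vsir-/- cells. The B cell cluster held 51.1% of the 1220 Btla UMIs in WT cells but 20.8% of 173 in Vsir-/- cells, where the cluster that the authors named pDC held 37.6%. The libraries also caught different cells: B cells were 17.7% of WT and 4.77% of Vsir-/- cells, and macrophages were 13.9% and 29.1%. The macrophage share of Havcr2 was thus lower in the library with the larger share of macrophages. The cluster named pDC held 2.86% of Havcr2 UMIs in WT and 22.7% in Vsir-/- cells, and it made up 0.384% and 4.66% of the cells.

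**Figure D2:**
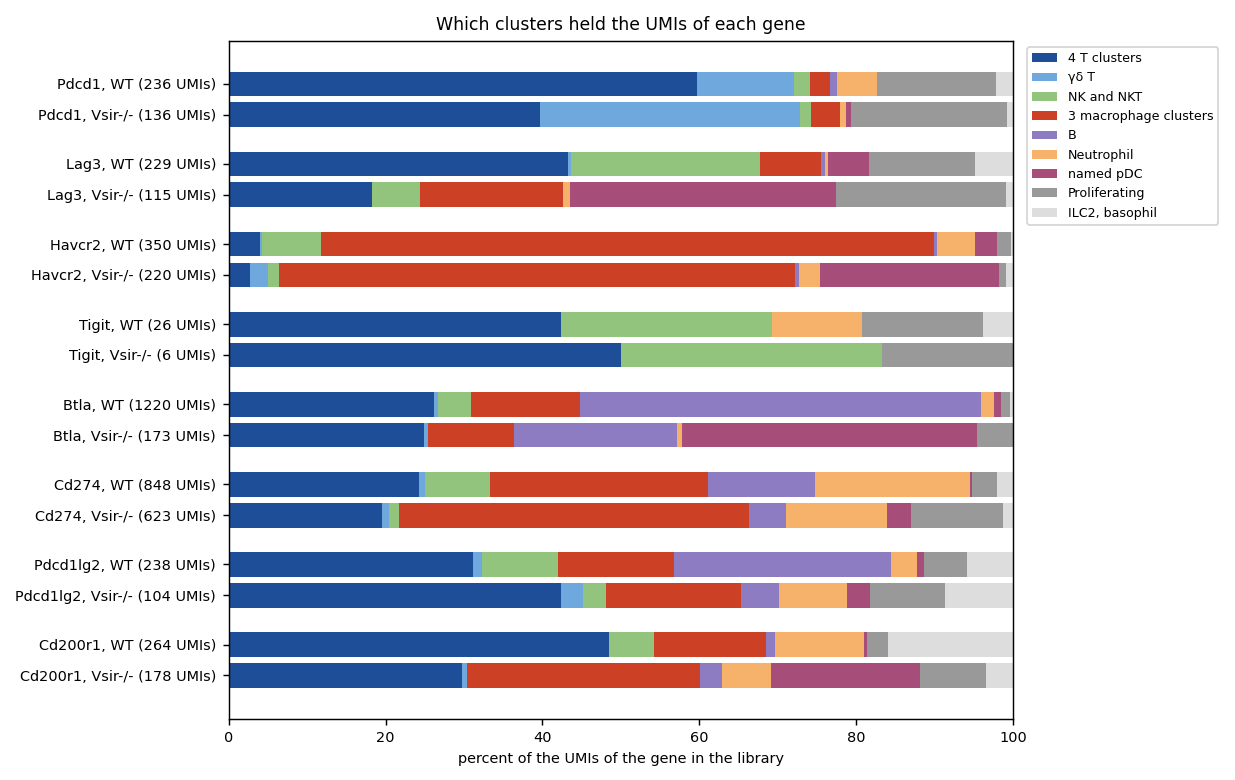
Percent of each gene's UMIs (x axis) held by groups of clusters (colors) in the WT and Vsir-/- libraries (rows, with the number of UMIs). Havcr2 bars are mostly macrophage in both libraries, and the purple B cell part of Btla is 51.1% in the WT bar and 20.8% in the Vsir-/- bar.

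**Figure D3:**
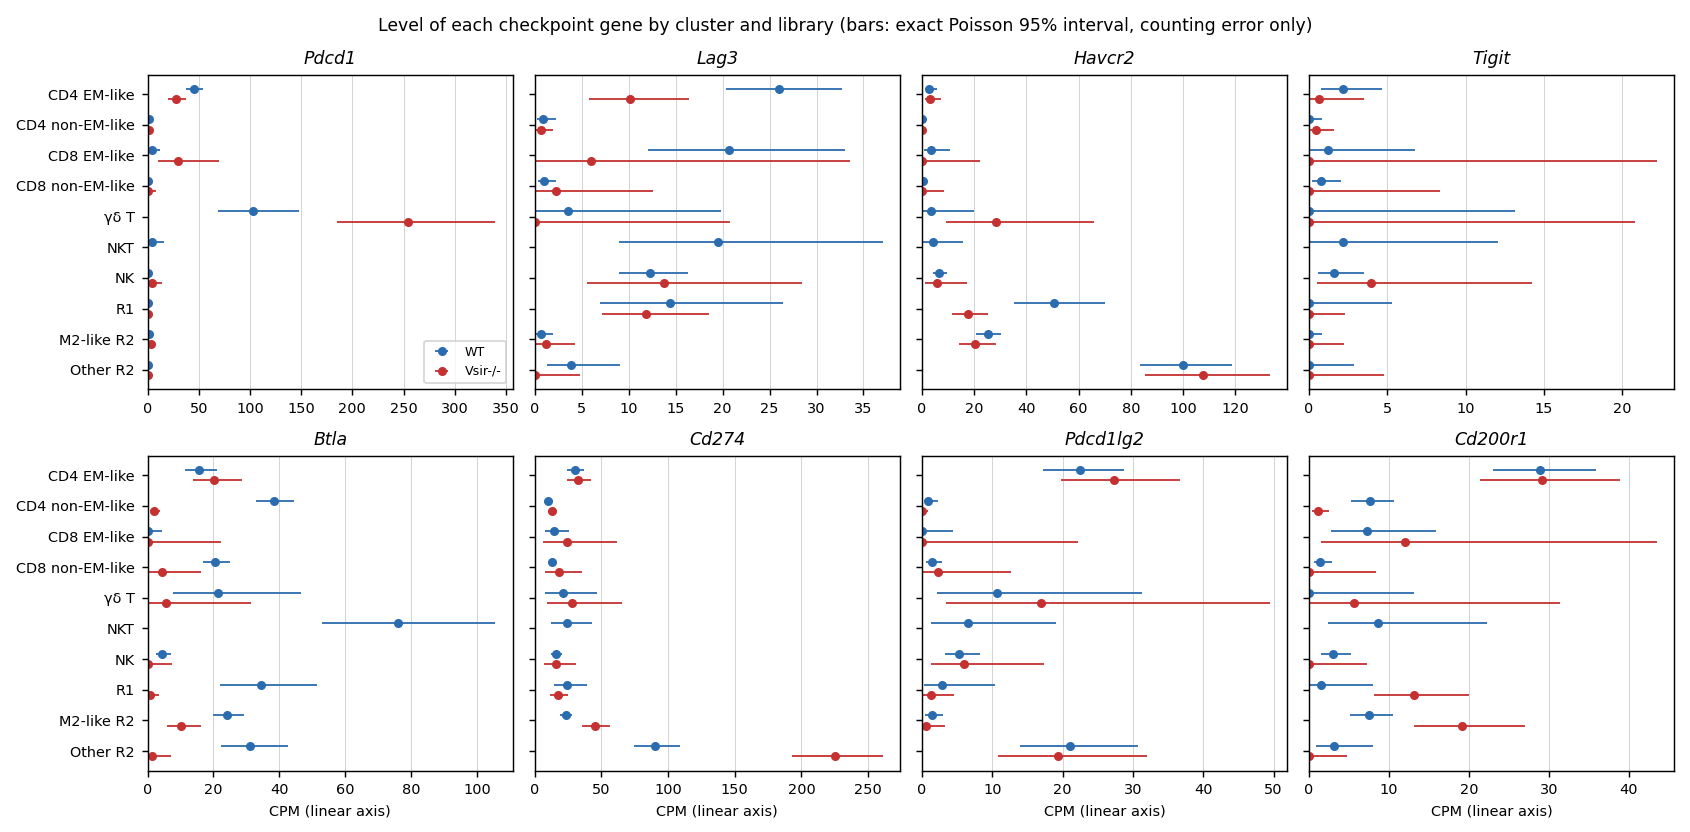
Level in CPM (x axis, linear, own scale per panel) of the 8 genes in the 10 T, NK, and macrophage clusters, WT in blue and Vsir-/- in red, with exact Poisson 95% intervals; NKT cells have a WT value only. Pdcd1 peaks in γδ T cells and Havcr2 and Cd274 in other R2 macrophages in both libraries.

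Pdcd1, which encodes PD-1, was highest in γδ T cells in both libraries, and its level there was 2.44-fold higher in the Vsir-/- library. Its level was 103 CPM (interval, 69.2 to 148) from 29 UMIs in 46 WT cells and 254 (185 to 340) from 45 UMIs in 28 Vsir-/- cells, a log2 ratio of 1.29 (0.59 to 2.02). The intervals of these 2 levels did not overlap, but they count UMIs and not cells. Single cells held 5 of the 29 WT and 9 of the 45 Vsir-/- UMIs. Cells without a Pdcd1 UMI made up 71.7% (56.5% to 84.0%) of WT and 53.6% (33.9% to 72.5%) of Vsir-/- cells, with overlapping intervals. At least 1 Pdcd1 UMI was found in 28.3% of WT and 46.4% of Vsir-/- γδ T cells (8.60% and 19.0% on expectation after thinning each cell to 1000 UMIs), at median depths of 5378 and 6263 UMIs. B cells, which should hold little Pdcd1, showed a UMI in 0.206% of 969 WT cells and in 0 of 88 Vsir-/- cells, which allows up to 3.41%, at median depths of 3426 and 3597. Within the cluster, the Pdcd1 level was higher in cells with a UMI of Trdv4, a variable segment of the δ chain. These were 6 WT and 11 Vsir-/- cells and held 238 and 483 CPM. Cells without a Trdv4 UMI stood at 82.4 and 95.4, with a log2 ratio of 0.25 (−1.05 to 1.37). The share of cells with a Trdv4 UMI moved with the Pdcd1 difference, as did the level within these few cells. The part of either in the difference was not tested.

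In the WT library the next highest level was that of EM-like CD4+ T cells, and there Pdcd1 was lower in the Vsir-/- library, but by less than 2-fold. The levels were 45.3 (37.8 to 53.9) from 127 UMIs in WT cells and 27.9 (20.3 to 37.4) from 44 UMIs in Vsir-/- cells, a log2 ratio of −0.69 (−1.23 to −0.19). The intervals of the 2 levels did not overlap. The share of cells with a UMI was close, at 11.5% of 489 WT and 9.84% of 244 Vsir-/- cells. A single WT cell carried 20 of the 127 UMIs, and 5 WT cells carried 6 or more against 1 Vsir-/- cell. Cells with a UMI of Foxp3, the regulator of regulatory T cells, were 24 WT and 15 Vsir-/- cells and held 46.2 and 87.6 CPM of Pdcd1, with overlapping intervals.

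In EM-like CD8+ T cells Pdcd1 rested on few transcripts, with 4 UMIs in 197 WT cells and 5 in 28 Vsir-/- cells. The levels of 4.86 (1.32 to 12.4) and 30.1 (9.78 to 70.3) gave a log2 ratio of 2.60 (0.42 to 4.97). Cd4 transcripts were found in 21.4% of these Vsir-/- cells and in 2.54% of the WT cells, whereas Cd8a or Cd8b1 was found in 53.6% and 52.8%. NK cell markers summed to 289 CPM in the Vsir-/- and 1661 CPM in the WT cells of this cluster. Non-EM-like T cells, NK cells, and macrophages held at most 8 Pdcd1 UMIs per cluster and library. Proliferating cells, which were not among the compared clusters, stood at 17.9 in WT and 6.07 in Vsir-/- cells, and among those with a T cell transcript the levels were 18.2 and 18.7.

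**Figure D4:**
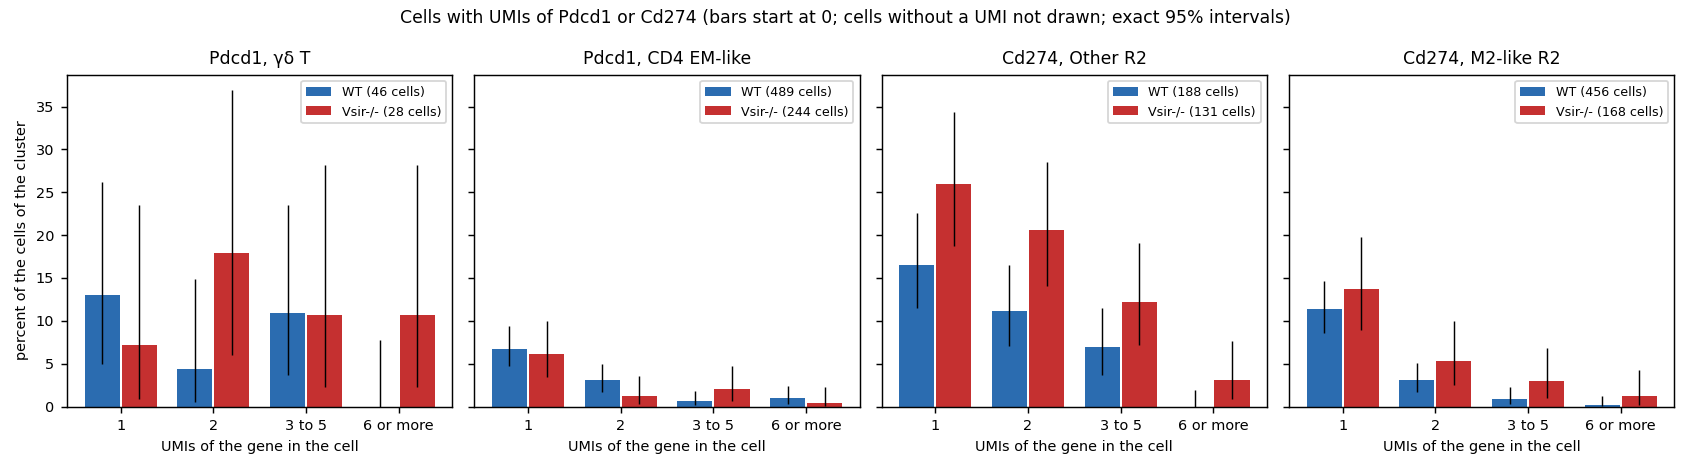
Percent of cells (y axis, from 0) with 1, 2, 3 to 5, or 6 or more UMIs (x axis) of Pdcd1 in γδ T and EM-like CD4+ T cells and of Cd274 in other R2 and M2-like R2 macrophages, WT in blue and Vsir-/- in red, with exact 95% intervals; cells without a UMI are not drawn. Vsir-/- bars exceed WT bars in every class for Cd274, whereas for Pdcd1 the order changes from class to class.

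Lag3, whose product binds MHC class II and damps T cell activation, was lower in EM-like CD4+ T cells of the Vsir-/- library. The level was 26.05 (20.4 to 32.7) from 73 UMIs in WT cells and 10.1 (5.80 to 16.5) from 16 UMIs in Vsir-/- cells, a log2 ratio of −1.33 (−2.24 to −0.57). This was the only 1 of the 6 members with 20 UMIs in that cluster that differed by 2-fold, where 5.42% of all genes were at least 2-fold lower and 10.4% at least 2-fold higher. The cluster was mixed, since Cd8a or Cd8b1 was found in 21.1% of its WT and 17.6% of its Vsir-/- cells. Among cells with a Cd8 but no Cd4 UMI, Lag3 stood at 54.3 (38.1 to 75.2) in 93 WT cells and 20.7 (7.59 to 45.0) in 40 Vsir-/- cells. Among cells with a Cd4 but no Cd8 UMI, it stood at 8.38 in 92 WT cells and 11.5 in 76 Vsir-/- cells, from 5 and 6 UMIs. Of the 73 WT Lag3 UMIs of the cluster, 36 lay in the cells with a Cd8 but no Cd4 UMI. NK cell markers moved with it, with 739 CPM in the WT and 210 in the Vsir-/- EM-like CD4+ cluster, and their part in the difference was not tested.

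The Lag3 level of NK cells was 12.2 (8.96 to 16.3) and 13.8 (5.55 to 28.5), a log2 ratio of 0.26 (−1.22 to 1.33). R1 macrophages held 14.4 (6.90 to 26.5) and 11.9 (7.14 to 18.5), with overlapping intervals. EM-like CD8+ T cells gave 17 WT UMIs and 1 Vsir-/- UMI, and the interval of this ratio, −7.16 to 0.90 on the log2 scale, spans 0. Lag3 was also detected in the cluster named pDC, at 45.3 in 21 WT cells and 33.0 in 86 Vsir-/- cells, and in WT basophils at 68.8 from 10 UMIs. In proliferating Vsir-/- cells a single cell held 18 of 25 Lag3 UMIs.

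Havcr2, which encodes TIM-3, was mainly a macrophage transcript in these kidneys, and in the cluster with its highest level the libraries differed by less than the counting error. Other R2 macrophages stood at 99.9 (83.4 to 119) from 128 UMIs in WT and 107 (85.6 to 133) from 83 UMIs in Vsir-/- cells, a log2 ratio of 0.11 (−0.31 to 0.51). The transcript was found in 41.5% of 188 WT and 35.9% of 131 Vsir-/- cells. M2-like R2 macrophages were lower, at 25.3 (20.8 to 30.4) and 20.3 (14.1 to 28.4), with overlapping intervals. In R1 macrophages, Havcr2 was 50.4 (35.1 to 70.0) from 35 UMIs in 116 WT cells and 17.5 (11.6 to 25.3) from 28 UMIs in 237 Vsir-/- cells, a log2 ratio of −1.52 (−2.30 to −0.77). The WT and Vsir-/- intervals were apart in R1, and the WT order of other R2, R1, and M2-like R2 became other R2, M2-like R2, and R1, with the last 2 overlapping. The R1 difference was as large in cells without a T or B cell marker, at 74.0 and 21.6. With cells thinned to 1000 UMIs the log2 ratio was −1.18 on expectation, but 1 random draw, which left few UMIs, gave 1.16. Of the Vsir-/- R1 cells, 52 of 237 had no transcript of Ptprc, against 6 of 116 WT cells.

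T cells held little Havcr2. In EM-like CD4+ T cells there were 8 UMIs in the WT and 5 in the Vsir-/- library, and γδ T cells gave 1 and 5. All 4 Vsir-/- γδ T cells with Havcr2 also had Pdcd1. NK cells stood at 6.39 from 24 UMIs and 5.92 from 3 UMIs. The cluster named pDC held 37.8 and 42.3.

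Tigit, a receptor for CD155 on T and NK cells, was at the edge of detection. It gave 26 UMIs in 26 of 5470 WT cells and 6 in 6 of 1844 Vsir-/- cells. NK cells and EM-like CD4+ T cells of the WT library held 6 UMIs each, and the corresponding Vsir-/- clusters held 2 and 1. The 3 macrophage clusters held 0 in both libraries. No difference between the libraries was detectable at this depth.

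Detection of more than 1 of the receptors Pdcd1, Lag3, Havcr2, and Tigit in the same cell was rare in the EM-like clusters. Within the CD4+ cluster of this kind, 15 of 489 WT cells (3.07%) and 3 of 244 Vsir-/- cells (1.23%) held at least 2 of the 4. Lag3 was found in 11 of 56 WT cells with Pdcd1 (19.6%; 10.2% to 32.4%) and in 7.39% of those without (5.11% to 10.3%). In the Vsir-/- library the shares were 12.5% and 4.09%, with wide intervals (2.66% to 32.4% and 1.89% to 7.62%). Cells with Pdcd1 were somewhat deeper in the WT library, with a median of 5708 UMIs against 4793. In a random draw of 1000 UMIs per cell, only 2 WT cells and 0 Vsir-/- cells held 2 of the 4, which is too few to compare. In EM-like CD8+ T cells, 0 of 197 WT and 0 of 28 Vsir-/- cells did so at full depth. Among γδ T cells, 0 of 46 WT and 4 of 28 Vsir-/- cells (14.3%) did, and these 4 were the cells with both Pdcd1 and Havcr2, out of 13 with Pdcd1.

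Btla, an inhibitory receptor of B cells and resting T cells that binds HVEM, made up 5 of the 8 pairs that were at least 2-fold lower in the Vsir-/- library. In non-EM-like CD4+ T cells its level was 38.4 (32.8 to 44.6) from 171 UMIs in WT and 1.96 (0.895 to 3.72) from 9 UMIs in Vsir-/- cells, a log2 ratio of −4.22 (−5.45 to −3.33). The median of all genes in this cluster was itself shifted by 0.91. All 9 Vsir-/- UMIs came from the 116 cells with a T cell transcript, where the level was 7.38 (3.38 to 14.0) and the log2 ratio −2.30 (−3.53 to −1.42). Non-EM-like CD8+ T cells pointed the same way with less depth, at 20.6 (16.8 to 24.9) from 104 UMIs and 4.52 (0.55 to 16.3) from 2 UMIs. The log2 ratio was −1.87 (−5.25 to −0.29). With cells thinned to 1000 UMIs it was −0.30, but the 2 Vsir-/- UMIs shrink on thinning, so the added 0.5 UMI weighs heavily in that value. The EM-like CD4+ cluster did not point this way, with 15.7 (11.4 to 21.1) and 20.3 (13.9 to 28.6).

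The other 3 Btla pairs were the macrophage clusters, where WT Btla lay mostly in cells that also carried lymphocyte markers. R1 macrophages held 24 UMIs in the WT and 1 in the Vsir-/- library, M2-like R2 macrophages 106 and 17, and other R2 macrophages 40 and 1. The log2 ratios were −5.23 (−11.2 to −3.17), −1.21 (−2.08 to −0.50), and −4.03 (−9.93 to −2.03). All 24 UMIs of WT R1 macrophages and 39 of the 40 of WT other R2 macrophages were in cells with a T or B cell marker UMI. In cells without such a marker, R1 macrophages of both libraries gave 0 UMIs (44 of 116 WT and 160 of 237 Vsir-/- cells) and other R2 macrophages 1 each. In M2-like R2 macrophages, 92 of the 106 WT but 4 of the 17 Vsir-/- UMIs were in cells with a marker. Cells without one were 153 of 456 WT but 142 of 168 Vsir-/- cells, so these UMI counts start from unlike shares of cells. The cells without a marker held Btla at 10.1 (5.50 to 16.9) in WT and 9.42 (5.02 to 16.1) in Vsir-/- cells, a log2 ratio of −0.09 (−1.30 to 1.10). Over all M2-like R2 cells it was −0.80 with cells thinned to 1000 UMIs. The split by marker was chosen after the data were seen.

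**Figure D5:**
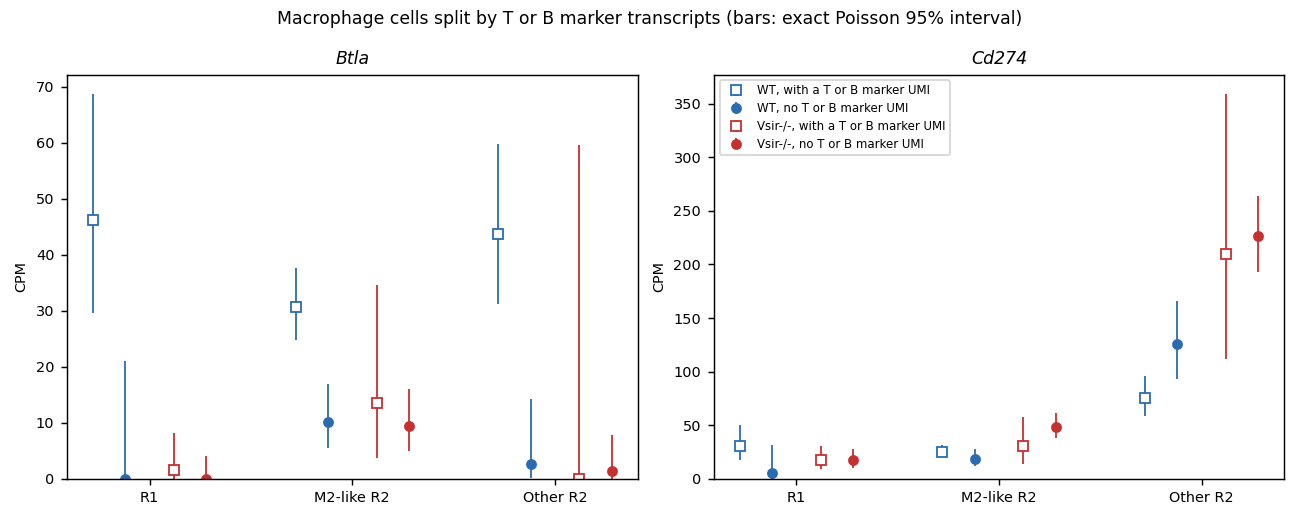
Btla (left) and Cd274 (right) in CPM (y axis, from 0) in the 3 macrophage clusters (x axis), with open squares for cells with a T or B cell marker UMI and filled circles for cells without, WT in blue and Vsir-/- in red; bars are exact Poisson 95% intervals. Filled Btla circles of the libraries lie together in each cluster, whereas filled Cd274 circles of other R2 macrophages lie apart at 125 and 226.

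B cells, the main source of Btla in the WT library, are no T, NK, or macrophage cluster but show the same gene. Their level was 179 (165 to 194) in WT and 68.6 (48.1 to 95) in Vsir-/- cells. In the Vsir-/- library 43 of the 88 cells of this cluster had no B cell marker, and the 45 that did stood at 97.8 (66.5 to 139). A Btla UMI was found in 41.7% of WT B cells, against 2.86% of WT neutrophils at median depths of 3426 and 3565 UMIs. WT NKT cells held 35 Btla UMIs, or 75.9 CPM (52.8 to 106), beside B cell markers at 2473 CPM in the same cells.

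Cd274, which encodes PD-L1, was higher in infiltrating macrophages of the Vsir-/- library. In other R2 macrophages its level was 90.5 (74.8 to 109) from 116 UMIs in 188 WT cells and 225 (193 to 261) from 174 UMIs in 131 Vsir-/- cells, a log2 ratio of 1.31 (0.97 to 1.67). The intervals were well apart. In that cluster, 6.7% of all genes were at least 2-fold higher and 9.5% at least 2-fold lower, and of the 4 members with 20 UMIs 1 was higher (Cd274) and 1 lower (Btla). Cells with a Cd274 UMI made up 34.6% (27.8% to 41.8%) of WT and 61.8% (52.9% to 70.2%) of Vsir-/- cells, or 9.44% and 19.4% on expectation when thinned to 1000 UMIs. The difference was spread over the cells, with 2 UMIs in 11.2% and 20.6% of cells and 6 or more in 0 of 188 and 4 of 131. Without the cells that carried a T or B cell marker, the levels were 125 (92.8 to 166) and 226 (193 to 264), and the log2 ratio was 0.84 (0.38 to 1.34), below 2-fold.

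M2-like R2 macrophages pointed the same way just short of the 2-fold line. Their Cd274 level was 23.2 (18.9 to 28.2) from 102 UMIs and 45.4 (35.7 to 56.8) from 76 UMIs, a log2 ratio of 0.97 (0.52 to 1.41). Without lymphocyte markers the levels were 18.7 and 48.5, and the log2 ratio was 1.36 (0.71 to 2.09). R1 macrophages gave 24.5 (14.3 to 39.2) and 17.5 (11.6 to 25.3), a log2 ratio of −0.50 with an interval that spans 0. Neutrophils, outside the compared clusters, stood at 67.7 (57.9 to 78.8) in WT and 103 (81.6 to 128) in Vsir-/- cells.

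T and NK cells held Cd274 below the level of other R2 macrophages, with overlapping intervals of the libraries in EM-like CD4+ T cells and NK cells. The EM-like CD4+ cluster stood at 30.0 (23.9 to 37.1) and 32.3 (24.1 to 42.5), and NK cells at 15.96 and 15.8. Non-EM-like CD4+ T cells stood at 10.3 and 12.8 as clustered. Among those with a T cell transcript the Vsir-/- level was 25.4 (17.3 to 36.1), a log2 ratio of 1.31 (0.59 to 1.99). Cells with a Foxp3 UMI in the EM-like CD4+ cluster held 5 Cd274 UMIs among 24 WT cells and 11 among 15 Vsir-/- cells, or 33.0 and 121 CPM.

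Pdcd1lg2, which encodes PD-L2, reached 20 UMIs in 3 of the 9 compared clusters, and none of them was 2-fold apart. For Cd274, 1 of 7 was. Over all genes and the 9 clusters, 15.9% of such pairs were at least 2-fold higher and 8.46% at least 2-fold lower. In the 3 clusters of Pdcd1lg2, 6.7% to 10.4% of all genes were higher and 5.42% to 9.5% lower. Counts this small do not set the 2 ligands apart. Outside the compared clusters, proliferating cells stood at 6.47 in WT and 2.25 in Vsir-/- cells from 13 and 10 UMIs. The log2 ratio was −1.51 (−2.87 to −0.22). EM-like CD4+ T cells stood at 22.5 (17.3 to 28.8) from 63 UMIs in WT and 27.3 (19.7 to 36.7) from 43 UMIs in Vsir-/- cells. Other R2 macrophages stood at 21.1 (13.9 to 30.7) and 19.4 (10.9 to 32.0), a log2 ratio of −0.10. M2-like R2 macrophages held 6 and 1 UMIs, and R1 macrophages 2 each. EM-like CD4+ T cells held 26.5% of the Pdcd1lg2 UMIs of the WT library and 41.3% of those of the Vsir-/- library. In other R2 macrophages Pdcd1lg2 was found in 10.8% of WT cells with Cd274 and 13.01% of those without, and in 8.64% and 14.0% of Vsir-/- cells. Havcr2 was found in 44.6% and 39.8% of the same WT cells and in 38.3% and 32.0% of the Vsir-/- cells, with overlapping intervals in each of these 4 comparisons. In M2-like R2 macrophages Pdcd1lg2 was found in 3 of 71 WT cells with Cd274 and 3 of 385 without, and in 1 of 39 and 0 of 129 Vsir-/- cells. Other R2 cells with Cd274 were deeper, at medians of 6543 against 4567 UMIs in WT cells and 6741 against 4540 in Vsir-/- cells.

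Cd200r1, the receptor for CD200 on myeloid cells and activated T cells, was higher in the M2-like R2 and R1 macrophages of the Vsir-/- library, the latter on 1 WT UMI, and close between libraries in EM-like CD4+ T cells. The gene sits beside closely related family members, so the assignment of its reads is uncertain. M2-like R2 macrophages stood at 7.51 (5.17 to 10.5) from 33 UMIs in WT and 19.1 (13.1 to 27.0) from 32 UMIs in Vsir-/- cells, a log2 ratio of 1.35 (0.60 to 2.09). A single Vsir-/- cell held 10 of the 32 UMIs, and without the top cell of each library the log2 ratio was 0.96, below 2-fold, as it was with every cell weighted the same (0.61). R1 macrophages held 1 UMI in 116 WT cells and 21 UMIs in 237 Vsir-/- cells, or 1.44 (0.04 to 8.02) and 13.1 (8.12 to 20.05), a log2 ratio of 2.64 (0.55 to 8.56). Other R2 macrophages held 4 and 0 UMIs. In M2-like R2, 8.1% of all genes were at least 2-fold higher and 7.6% lower, and in R1, 13.6% and 8.78%. Of the members with 20 UMIs, 1 of 4 was higher and 1 lower in M2-like R2, and 1 of 5 was higher and 2 lower in R1.

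In EM-like CD4+ T cells Cd200r1 stood at 28.9 (22.95 to 35.9) from 81 UMIs in WT and 29.2 (21.4 to 38.9) from 46 UMIs in Vsir-/- cells, a log2 ratio of 0.02 (−0.54 to 0.55). The transcript was found in 13.7% and 13.9% of these cells, against 0.206% of WT and 2.27% of Vsir-/- B cells. In non-EM-like CD4+ T cells it was lower in the Vsir-/- library, at 7.63 and 1.09, a log2 ratio of −2.69 (−4.52 to −1.45). Among those with a T cell transcript the Vsir-/- level was 4.10 (1.33 to 9.57) and the ratio −0.78, with an interval that spans 0. With all cells of the cluster thinned to 1000 UMIs the log2 ratio was −1.03 on expectation and 0.74 in 1 random draw.

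Genes that act with the members were counted from 4 lists. Of all genes, 10.4% were at least 2-fold higher and 5.42% lower in EM-like CD4+ T cells. The shares were 6.03% and 9.98% in EM-like CD8+ T cells and 13.6% and 8.78% in R1. In M2-like R2 they were 8.1% and 7.6%, and in other R2 6.7% and 9.5%. Of 11 further binding partners of the receptors, 5 reached 20 UMIs in EM-like CD4+ T cells, and Cd200, the ligand of the CD200 receptor, was 2-fold higher in the Vsir-/- library, with 7.49 and 20.3 CPM. In R1 macrophages 7 partners reached 20 UMIs and 2 were 2-fold higher. These were Cd200 at 10.1 and 41.2 and Nectin3, a ligand of the TIGIT family, with 0 WT UMIs and 28 Vsir-/- UMIs. Nectin3 is listed at 0 in the whole WT library, against 806 UMIs in the Vsir-/- library. The highest Cd200 levels were those of WT B cells, at 60.3, and of Vsir-/- proliferating cells, at 146. In the Vsir-/- non-EM-like CD4+ cluster Cd200 stood at 81.1. Most Vsir-/- proliferating cells lacked Ptprc, and most Vsir-/- cells of that CD4+ cluster lacked T cell transcripts. The part of such cells in the Cd200 differences was not tested. In M2-like R2, other R2, and EM-like CD8+ T cells no partner was 2-fold apart, of 7, 6, and 3 with 20 UMIs. Cd80, which also binds PD-L1, was highest in neutrophils of both libraries, at 31.8 in WT and 45.0 in Vsir-/- cells.

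The clusters with the highest level of the remaining partners were as follows. Lgals9, a proposed ligand of TIM-3, was highest in WT M2-like R2 macrophages and in Vsir-/- proliferating cells. Ceacam1, a further TIM-3 partner, was highest in other R2 macrophages in both libraries, and Lgals3, a proposed LAG-3 ligand, in M2-like R2 macrophages in both. Hmgb1 was highest in proliferating cells in both. The CD155 gene Pvr was highest in the WT cluster named pDC, at 22.7 from 6 UMIs, with WT other R2 macrophages close at 22.6 from 29 UMIs. In the Vsir-/- library Pvr was highest in EM-like CD4+ T cells, at 30.4 from 48 UMIs. Nectin2 and Nectin3 were highest in the Vsir-/- non-EM-like CD4+ cluster, whose cells mostly lacked T cell transcripts, and both are listed at 0 in the whole WT library. Tnfrsf14, the gene of the BTLA ligand HVEM, gave at most 3 UMIs in the highest clusters of either library, so its ranks are uncertain. WT non-EM-like CD8+ T cells held 21 Tnfrsf14 UMIs at 4.15 CPM, beside 2 UMIs at 4.34 in the top WT cluster, NKT cells. Fgl1 gave 0 WT and 9 Vsir-/- UMIs, and its level was highest in the Vsir-/- non-EM-like CD4+ cluster, from 6 UMIs.

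Of 18 genes listed as other inhibitory receptors, Lilrb4a, a myeloid receptor that signals through phosphatases, was higher in the Vsir-/- library in each of the 3 macrophage clusters, at 82.0 and 243 in R1, 45.8 and 245 in M2-like R2, and 39.8 and 256 in other R2. It was also higher in EM-like CD4+ T cells, at 17.5 and 45.0. The NK and T cell receptor gene Cd244a was lower in EM-like CD4+ T cells at 62.1 and 15.8, in EM-like CD8+ T cells at 141 and 36.1, and in R1 macrophages at 33.1 and 5.62. Cd160, a second receptor for HVEM, was lower in EM-like CD4+ T cells at 214 and 79.2 and in EM-like CD8+ T cells at 247 and 90.3. NK cell markers were lower in the same 2 clusters, as given above, and their part in the Cd160 and Cd244a differences was not tested. Klrc1, which encodes the NK receptor NKG2A, was lower in EM-like CD4+ T cells at 272 and 40.6. In all, 1 of 12 was higher and 3 were lower in EM-like CD4+ T cells, 1 and 2 of 9 in EM-like CD8+ T cells, 1 and 2 of 9 in R1, 4 and 5 of 15 in M2-like R2, and 1 and 3 of 10 in other R2. The list also holds Cd226, an activating receptor that shares ligands with TIGIT and is 1 of the 4 higher genes in M2-like R2. The 5 lower genes there were Cd160, Klrg1, Klrc1, Cd5, and Siglecg. Cd5 gave 30 WT and 0 Vsir-/- UMIs in that cluster, and Klrc1 gave 49 and 0. Siglecg was among the lower genes in all 3 macrophage clusters. WT macrophages held more lymphocyte transcripts, as given above, and the part of these in the macrophage counts was not tested. In EM-like CD8+ T cells 6.03% of all genes were at least 2-fold higher and 9.98% at least 2-fold lower.

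Of the 10 signaling genes of these receptors, none was 2-fold apart in EM-like CD4+ T cells. None of the 9 with 20 UMIs was in other R2 macrophages. Of all genes, 10.4% were at least 2-fold higher and 5.42% lower in the former cluster, and 6.7% and 9.5% in the latter. Counts this small do not set the signaling genes apart from all genes. In EM-like CD8+ T cells, 1 was lower (Bag6, an adaptor of TIM-3, with 28 WT UMIs and 2 Vsir-/- UMIs). The interval of its log2 ratio, −4.61 to 0.49, spans 0. In R1, 1 was lower (Sh2d1a, an adaptor of lymphocyte receptors, with 20 WT UMIs and 0 Vsir-/- UMIs). In M2-like R2, Dok2 was higher and Sh2d1a lower. Of the 17 regulators, Nr4a1, which T cell receptor signaling induces, was higher in EM-like CD4+ T cells at 54.6 and 126 and in EM-like CD8+ T cells at 38.9 and 145, but lower in R1 macrophages at 160 and 53.7. Maf was higher by more in EM-like CD8+ T cells, at 10.9 and 108, from 9 WT and 18 Vsir-/- UMIs. Tox, a transcription factor of chronically stimulated T cells, was lower in EM-like CD4+ T cells at 141 and 62.8, as was Tcf7, a factor of naive and memory T cells, at 198 and 73.5. In total, 2 of 17 regulators were higher and 3 lower in EM-like CD4+ T cells, 2 and 2 of 15 in EM-like CD8+ T cells, 1 and 5 of 12 in R1, 0 and 6 of 17 in M2-like R2, and 1 and 2 of 13 in other R2. The lymphocyte genes Tcf7 and Ikzf2 were among the lower ones in all 3 macrophage clusters, beside the lymphocyte marker levels given above.

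Across the 29 sums of cluster and library with at least 20 cells, the genes with the most similar pattern were described by Pearson's r of log2 (level + 10), without a test because these sums share libraries and depth. Pdcd1 was most like Tcrg-C1, a γ chain constant segment (r = 0.92), Lag3 most like Cd7 (0.77), and Havcr2 most like Grk3 (0.89). Btla was most like Fchsd2 (0.88), followed by H2-Ob and Ighm, both B cell genes. Cd274 was most like Arid3a (0.84), Pdcd1lg2 like Nfkbid (0.74), and Cd200r1 like the type 2 cytokine gene Il4 (0.75) and the IL-33 receptor gene Il1rl1 (0.71). Tigit was most like Cpne7 (0.82), on 32 UMIs only. With 1 in place of 10 added to the level, the first gene became Podnl1 for Pdcd1, Dpm2 for Lag3, and Lrwd1 for Cd200r1, and only 1 of the 3 leading genes was shared for Havcr2 and Cd200r1. Between the members, the highest value was that of Cd274 and Pdcd1lg2 (0.51).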

How the data were processed

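Single-cell RNA libraries of kidney cells from mice with NTN, 1 WT and 1 Vsir-/-, were analyzed. Per the submitters' processing notes, the authors used Cell Ranger (3.1.0), R (4.0.3), and Seurat (3.2.3). The notes list the build mm9. By the study's methods, the authors kept genes found in at least 5 cells and cells with at least 200 UMIs and at most 10% mitochondrial UMIs, merged the libraries, and assigned each cell to a cluster that they named. In the files, 140 genes were found in 1 to 4 WT cells and 2332 in 1 to 4 Vsir-/- cells, so the gene minimum does not hold within each library. The deposited counts are whole UMIs of each gene in each cell. The deposited mitochondrial percent per cell served only for the alternative limit of 5%. The authors' 2 columns of UMAP coordinates were not used. Removal of doublets is not given in the sources used here, and none was done.

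For each cluster and library, the UMIs of a gene were added up and set against all UMIs of the same cells (CPM). Cd244 (1865 WT and 0 Vsir-/- UMIs) and Cd244a (0 and 350) are the older and newer symbol of 1 gene and were summed as Cd244a after this was seen. Cells are not replicates, so no p-value or standard error was computed. Intervals are exact (Poisson for levels, Clopper-Pearson for shares, conditional for ratios, all at 95%) and cover counting error only. A difference was called from 2-fold on, with at least 20 UMIs over both libraries, and 0.5 UMI was added to both sums. A share of 0 allows 3 cells. Cells were thinned to 1000 UMIs without replacement, which left out 167 WT and 78 Vsir-/- cells. Because low values changed from draw to draw, thinned levels and shares are expectations over all draws, a choice made after the draws were seen, and 1 draw is given beside them. Thinning shrinks the sums, so the added 0.5 UMI weighs more in thinned ratios of genes with few UMIs. The members, lists, and rules were chosen with earlier results of these data known. Named were all members, Vsir, for each list up to 4 genes per direction that were called, and the top cluster of each partner. Of the 3 genes most like each member, at least the first was named. Trimmed lists are given as counts. Markers of the NK, B, T, and tubule lists were summed, and Trdv4, Foxp3, Cd4, Cd8, and Ptprc were used to split or describe cells. Upstream sequences came from RefSeq (GRCm38.p6). The steps were tested on simulated data. Python 3.11.15, numpy 2.4.6, scipy 1.17.1, pandas 2.3.3, and matplotlib 3.10.9 were used.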

Additional observations from a re-analysis of the deposited data

Results flagged for a closer look

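Pdcd1 and Cd200r1 differed between the libraries in opposite directions from cluster to cluster, with counting intervals that leave out 0 when every cell is counted. Expressed as Vsir-/- over WT on the log2 scale, Pdcd1 stood at 2.60 in EM-like CD8+ T cells (9 UMIs in all), 1.29 in γδ T cells, and −0.69 in EM-like CD4+ T cells. Cd200r1 stood at 1.35 in M2-like R2 macrophages, 2.64 in R1 macrophages (1 WT UMI), and −2.69 in non-EM-like CD4+ T cells. The opposite direction of Cd200r1 depends on that last value, whose interval spans 0 when only cells with a T cell transcript are kept. Over the processing settings it ranged from −3.26 to 0.74, the latter in 1 random draw. The M2-like R2 value ranged from 0.61 to 1.40, below 2-fold in part of the settings. The difference between clusters was not tested in either gene, because each genotype is 1 library.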

How the results depend on the processing

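Counts of called pairs ranged from 3 to 6 higher and from 3 to 11 lower over the settings with a filter on low counts, beside 4 and 8. Without a filter they were 18 and 19. With macrophages limited to cells without a T or B cell marker, a setting chosen after the data were seen, 5 were lower, and in 1 random draw of 1000 UMIs per cell 3 were. That draw also gave the opposite direction for Havcr2 in R1 macrophages (1.16) and Cd200r1 in non-EM-like CD4+ T cells (0.74). An earlier draw gave other values, so the expectation over all draws was computed, and in it no called ratio changed direction. Among the 12 called ratios, 12 stayed past 2-fold with another pseudocount (1 UMI), per cell, with at most 5% mitochondrial UMIs, or with mitochondrial and tubule genes left out of the total. With T cells limited to cells with a T cell transcript 11 did, with every cell weighted the same 11, and without the top cell of each library 11. With macrophages lacking lymphocyte markers 8 of 10 did, thinned on expectation 8 of 10, and in the draw 4 of 8. The T cell limit leaves γδ T cell and macrophage ratios unchanged by design, and the macrophage limit leaves T cell ratios unchanged. The former lost Cd200r1 in non-EM-like CD4+ T cells. The latter lost Btla in M2-like R2 and Cd274 in other R2 macrophages. The cause was not tested. Too few UMIs were left for a value of Lag3, Cd274, and Cd200r1 in R1, Pdcd1lg2 in NK cells, and Cd200r1 in M2-like R2 when thinned on expectation, and of Btla in R1 and other R2 in cells without lymphocyte markers. Of 42 shares of cells, 42 moved out of their intervals when thinned to 1000 UMIs and 41 when thinned to 2000. Low counts limit Tigit in all clusters and all members in EM-like CD8+ T cells, a cluster with 28 Vsir-/- cells. No paired analysis was possible because each genotype has 1 library.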

Other observations

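Outside the T, NK, and macrophage clusters, the cluster that the authors named pDC carried 4 of the 8 members (Lag3, Havcr2, Btla, and Cd200r1) at 28.7 CPM or more in its 86 Vsir-/- cells. Btla stood at 37.8 (exact 95% interval, 18.1 to 69.5) in WT and 54.9 (42.4 to 70.0) in Vsir-/- cells, and Havcr2 at 37.8 and 42.3, with overlapping intervals. Cd200r1 rested on 1 WT UMI and 34 Vsir-/- UMIs. The plasmacytoid dendritic cell markers summed to 2002 and 1421 CPM there. Because this cluster was 0.384% of WT and 4.66% of Vsir-/- cells, it held 5.24% of WT and 33.9% of Vsir-/- Lag3 UMIs.

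Type 2 cells carried Cd200r1. It stood at 76.8 (52.2 to 109) in 79 WT ILC2s, which are lymphocytes that make type 2 cytokines, and at 34.4 (11.2 to 80.2) in 19 Vsir-/- ILC2s, from 31 and 5 UMIs. WT basophils stood at 75.6 (37.8 to 135) from 11 UMIs in 25 cells, and the Vsir-/- library held 2 basophils. Pdcd1lg2 in ILC2s stood at 22.3 (10.2 to 42.3) and 55.0 (23.7 to 108), from 9 and 8 UMIs, with overlapping intervals.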
